A study of Rattus norvegicus with 4 samples.

Results

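The genes described here encode the constitutive subunits of the 26S proteasome and the factors that activate, inhibit or assemble it. They were taken from the probes of 4 one-colour Agilent rat expression arrays by gene symbol: every measured gene named Psma, Psmb, Psmc, Psmd, Psme, Psmf or Psmg with a number was included, and the immunoproteasome genes Psmb8, Psmb9 and Psmb10 were not. This gave 42 of the 16581 named genes on the arrays. Psmb11, Psmg1 and Psmg3 belong to the same families and had no named probe.

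All 4 arrays belong to 1 group. They carry total RNA of NR8383 cells exposed for 4 h to Printex90, a carbon black, at a dose given as 0.9 cm2/cm2, with 4 biological replicates and 20 passages stated in the labels; the labels mark the exposure as ALI, an abbreviation they do not spell out. NR8383 is an established macrophage line grown from the lung lavage of a normal rat. Unexposed control cells belong to the design and were not analysed here. None of the values is therefore an effect of Printex90, and conditions were not compared. The replicates are of 1 cell line and share 1 slide and 1 scan. No batch of slide or scan can therefore be examined, and array position and replicate cannot be told apart. Of 10 macrophage markers 9 were detected on all 4 arrays, Cd68 at a level of 7.56 ± 0.21 (SD, n = 4), and Adgre1 on 2 arrays. None of 8 epithelial markers was detected on all 4 arrays. Of 6 fibroblast markers 1 was (Dcn), of 6 T cell markers 2 were (Cd3d and Cd4), and of 5 measured neutrophil markers 1 was (Camp).

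The proteasome degrades proteins that carry ubiquitin chains. Its barrel-shaped core holds outer rings of alpha subunits, which gate the entrance, and inner rings of beta subunits, which cut the substrate. A regulatory cap binds the core: the base unfolds substrates with a ring of ATPases, and the lid removes ubiquitin. Other activators can dock on the core in place of the cap, and dedicated chaperones build both parts. In macrophages the proteasome also supplies peptides for antigen presentation and degrades the inhibitors of NF-kB.

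The promoters of the catalytic beta subunits are shown because coordinated transcription of proteasome genes is a textbook feature of the family, through factors of the Nfe2l group that read antioxidant response elements and, for many of its genes, through NF-Y at CCAAT boxes. Each line gives the 120 bases before the gene start, 5′ to 3′ on the strand of the gene, from RefSeq's GRCr8 assembly. Capitals mark TGACNNNGC, the core of the antioxidant response element, or CCAAT. Psmb2, a structural beta subunit, was added after the search because its window held both motifs, which overlap in the T of CCAAT.

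Psmb5 (chr15:32047380-32047499, minus strand): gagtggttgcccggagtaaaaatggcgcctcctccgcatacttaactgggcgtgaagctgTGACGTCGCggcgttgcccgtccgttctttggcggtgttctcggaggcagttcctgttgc
Psmb6 (chr10:55737768-55737887, plus strand): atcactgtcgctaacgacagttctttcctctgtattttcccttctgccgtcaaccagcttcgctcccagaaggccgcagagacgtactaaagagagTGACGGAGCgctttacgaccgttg
Psmb7 (chr3:42827471-42827590, minus strand): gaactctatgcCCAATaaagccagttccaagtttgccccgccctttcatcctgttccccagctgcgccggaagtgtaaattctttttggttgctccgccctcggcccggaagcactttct
Psmb2 (chr5:144254938-144255057, plus strand): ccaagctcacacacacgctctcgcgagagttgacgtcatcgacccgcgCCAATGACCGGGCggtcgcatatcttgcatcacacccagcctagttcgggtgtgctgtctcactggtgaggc

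Both motifs were then searched on both strands in the whole window from 250 bases before to 50 bases after the start. A window was found for 38 of the 42 genes; Psma7, Psmd6, Psmd12 and Psmd14 had none. TGACNNNGC was present in 8 of 38 proteasome promoters (21.1%): those of Psma3, Psmb2, Psmb5, Psmb6, Psmd1, Psmd3, Psmd9 and Psme4. The same motif was present in 12.2% of the 27457 promoters in the table and in 14.9% of the 7040 promoters of genes detected on all 4 arrays. It began 60 bases upstream of the start in Psmb5, 24 in Psmb6 and 68 in Psmb2. CCAAT was present in 18 of 38 proteasome promoters (47.4%), against 37.7% of all promoters and 38.7% of those of detected genes. Among these 18 were 5 genes of the alpha ring (Psma1 to Psma5) and 4 of the beta ring (Psmb1, Psmb2, Psmb3 and Psmb7). A match is a description of the letters and not a bound site.

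A gene counted as detected on an array when the scanner software marked a spot of any of its probes as well above background. By this measure 41 of the 42 proteasome genes (97.62%) passed on all 4 arrays, as did 50.8% of all named genes, and 1 was detected on none, as were 36.9% of all named genes. The 41 comprised all 7 alpha and all 7 constitutive beta subunits, all 6 ATPases and 3 non-ATPases of the base, all 8 lid subunits in the list, 4 activators, 1 inhibitor, 3 base chaperones and the 2 measured core chaperones. Levels below are log2 intensities relative to the array's 75th percentile over all probes, so 0 is that percentile. All 41 detected genes had a mean level above 0, as did 73.4% of all detected named genes, and 39 of 41 were above 0 on every array. The exceptions, Psme4 and Psmd10, were below 0 on replicate 3 only, at -0.11 and -0.06. Probes differ in how strongly they bind, so levels of different genes are not ranked against each other.

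**Figure D1:**
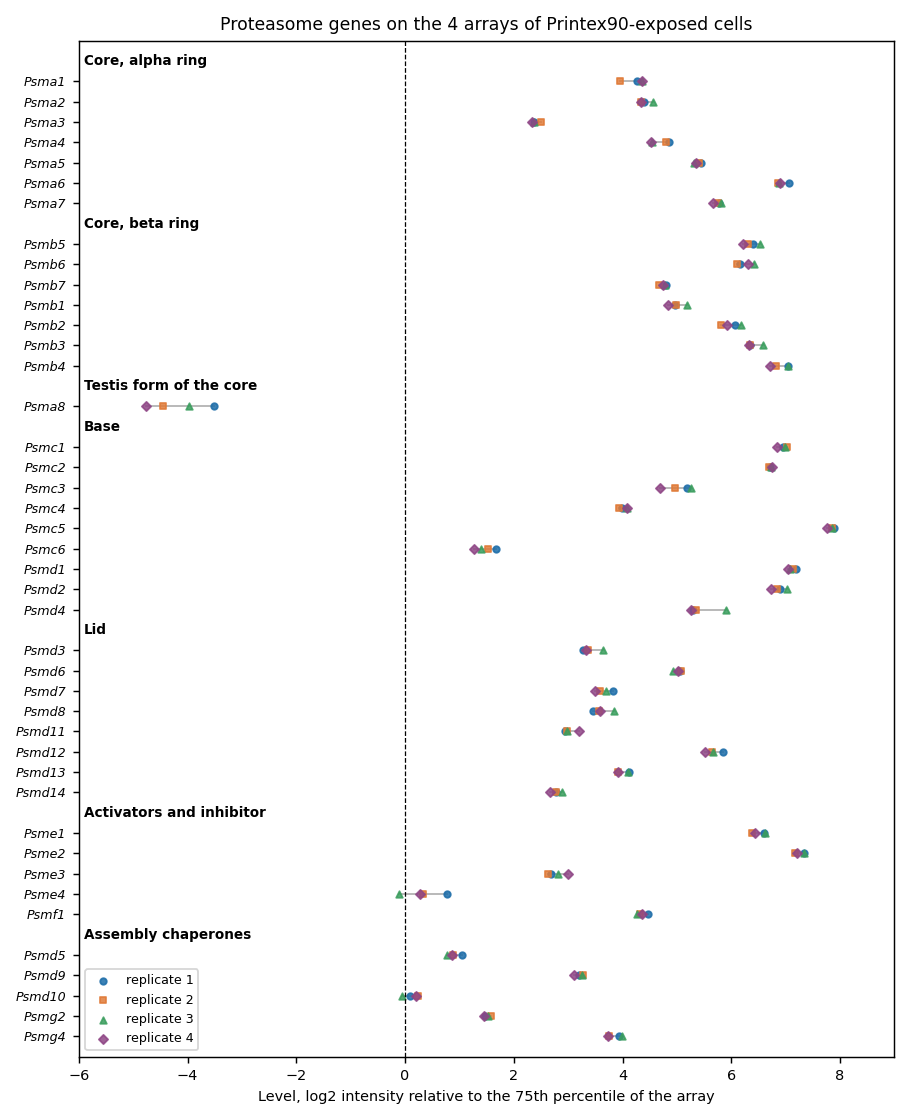
Level of each of the 42 proteasome genes on each array, as log2 intensity relative to the array's 75th percentile (dashed line at 0), grouped by the part of the proteasome; each symbol is 1 replicate. The 41 detected genes have means from 0.12 to 7.84 with replicates close together, and Psma8, detected on no array, averages -4.17.

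The catalytic beta subunits carry the 3 peptidase activities of the core. Psmb5, the chymotrypsin-like subunit whose active site bortezomib blocks, had levels of 6.41, 6.31, 6.52 and 6.22 on replicates 1 to 4. Psmb6, the caspase-like subunit, had 6.16, 6.10, 6.41 and 6.31. Psmb7, the trypsin-like subunit, had 4.80, 4.68, 4.77 and 4.74. Psmb5 and Psmb6 were highest on replicate 3 and varied with an SD of 0.13 and 0.14, while Psmb7 varied with an SD of 0.054, the third smallest among the 41 detected genes. The highest and lowest arrays differed by 1.23-fold for Psmb5, 1.24-fold for Psmb6 and 1.09-fold for Psmb7.

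The structural beta subunits complete the inner rings. Psmb1 had levels of 4.97, 4.99, 5.18 and 4.83 on replicates 1 to 4, highest on replicate 3 and lowest on replicate 4. Psmb2 averaged 5.997 ± 0.16, Psmb3 6.40 ± 0.12 and Psmb4 6.90 ± 0.16 (SD, n = 4 each), and each of these 3 was also highest on replicate 3. The 3 inducible counterparts of the catalytic subunits, which replace them in the immunoproteasome, were detected on all 4 arrays as well. Psmb8, the counterpart of Psmb5, averaged 5.49 ± 0.15, Psmb9, the counterpart of Psmb6, 4.14 ± 0.03, and Psmb10, the counterpart of Psmb7, 6.01 ± 0.16 (SD, n = 4 each). Whether the constitutive or the inducible form was the more abundant cannot be read from different probes.

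The alpha subunits form the gate through which substrates enter. Psma1 had per-array levels of 4.26, 3.95, 4.36 and 4.36 on replicates 1 to 4. Its low value on replicate 2 came from 1 of 2 spots of the same probe, at 3.52 and 4.39. Psma4 had 4.85, 4.81, 4.55 and 4.52, with replicates 1 and 2 above replicates 3 and 4. Its 2 spots differed by little within an array, with a pooled SD of 0.027, against an SD of 0.17 between arrays. Psma2 averaged 4.41 ± 0.11, Psma3 2.40 ± 0.08, Psma5 5.38 ± 0.06, Psma6 6.93 ± 0.09 and Psma7 5.75 ± 0.07 (SD, n = 4 each). The alpha ring had a median SD of 0.09 over its 7 genes, and the beta ring one of 0.14.

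Psma8 was the exception to detection. It encodes an alpha subunit that replaces Psma7 in the proteasomes of the testis. Its only probe had processed intensities of 8.76, 3.82, 6.45 and 4.71 on replicates 1 to 4, which are levels of -3.51, -4.46, -3.97 and -4.75, and it was not well above background on any array. A value not well above background is a bound, and its SD of 0.55 was larger than that of any detected proteasome gene. By the scanner software's less strict flag, a signal positive and significant over background, Psma8 passed on all 4 arrays, as did 61.7% of all named genes.

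The ATPases of the base pull substrates into the core. Psmc2 had levels of 6.71, 6.70, 6.73 and 6.74 on replicates 1 to 4, with an SD of 0.018, the smallest of the 41; its highest and lowest arrays differed by 1.03-fold. Psmc5 had 7.89, 7.86, 7.86 and 7.77, an SD of 0.051. Psmc1 had 6.95, 7.03, 6.996 and 6.85, an SD of 0.08. These 3 ATPases held their level to within 1.14-fold on all 4 arrays. Psmc3 did not: it had 5.18, 4.97, 5.26 and 4.69, lowest on replicate 4, with an SD of 0.25, the third largest of the 41, and a range of 1.48-fold. Psmc4 averaged 4.02 ± 0.07 and Psmc6 1.47 ± 0.18 (SD, n = 4 each). Within this 1 hexameric ring the measured SD ran from 0.018 for Psmc2 to 0.25 for Psmc3, each from 4 values of a probe printed once. Both genes were named because their SDs are extremes among the 41. The error of a single spot is not known for them, so it cannot be told apart from a difference between transcripts.

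The non-ATPase subunits of the base form its scaffold and bind ubiquitin. Psmd1, a scaffold subunit, had levels of 7.18, 7.14, 7.07 and 7.04 on replicates 1 to 4, a range of 1.105-fold. Psmd2, its partner, averaged 6.87 ± 0.12. Psmd4, the ubiquitin receptor also known as Rpn10, had 5.30, 5.36, 5.91 and 5.25. Replicate 3 stood apart for Psmd4, and the other arrays lay close together. The SD of Psmd4 was 0.31, the second largest of the 41, and its range was 1.58-fold. Its only spot lay in a block of the slide that was bright on replicate 3: 59 unnamed spots in that block had a median intensity of 70.1 on replicate 3, and of 13.4, 10.7 and 17.9 on replicates 1, 2 and 4. The intensity of the Psmd4 spot itself was 6078 on replicate 3 and 3910, 3429 and 4852 on replicates 1, 2 and 4. The part of the bright block in this value was not tested.

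The lid removes ubiquitin from substrates. Psmd3, a scaffold subunit of the lid, had levels of 3.28, 3.37, 3.65 and 3.34 on replicates 1 to 4, with replicate 3 highest. Psmd14, the deubiquitinase known as Rpn11, averaged 2.78 ± 0.09 (SD, n = 4). Among the other 6 lid genes Psmd6 averaged 5.02 ± 0.07, Psmd7 3.65 ± 0.15 and Psmd8 3.61 ± 0.17. Psmd11 averaged 3.02 ± 0.12, Psmd12 5.67 ± 0.13 and Psmd13 4.01 ± 0.11 (SD, n = 4 each). No lid gene exceeded an SD of 0.17, and the median over the 8 was 0.13. Sem1, the smallest lid subunit, is named outside the family and averaged 7.24 ± 0.16.

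The activators and the inhibitor bind the core independently of the cap. Psme1, a subunit of the interferon-inducible PA28 alpha-beta ring, had levels of 6.60, 6.38, 6.61 and 6.44 on replicates 1 to 4. Its partner Psme2 averaged 7.26 ± 0.09 and followed the same order of arrays: replicates 1 and 3 were above replicates 2 and 4 for both genes. Replicates 1 and 3 were also above 2 and 4 for Psmb2, Psmb3, Psmb4, Psmb5 and Psmb7 of the beta ring, but not for Psmb1 and Psmb6. Genes of other parts had the same pattern, among them Psma7, Psmc3, Psmd2, Psmd13 and Psmg4, and others did not. The share of all detected genes with this pattern was not counted. Psme3, the nuclear PA28 gamma, averaged 2.77 ± 0.16. Psme4, the nuclear activator PA200, had 0.78, 0.32, -0.11 and 0.27, highest on replicate 1 and lowest on replicate 3, which is a range of 1.85-fold and an SD of 0.36, the largest of the 41. Psmf1, the inhibitor PI31, had 4.46, 4.33, 4.27 and 4.36, an SD of 0.08.

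The assembly chaperones do not stay in the finished particle. Psmd5, which helps build the base, had levels of 1.05, 0.88, 0.77 and 0.87 on replicates 1 to 4. Psmd9 and Psmd10, the other base chaperones, averaged 3.21 ± 0.07 and 0.12 ± 0.14. Psmg2, which starts the alpha ring together with Psmg1, had 1.46, 1.59, 1.52 and 1.46. Psmg4 had 3.93, 3.75, 3.98 and 3.74. All 5 measured chaperone genes were detected on all 4 arrays with an SD of at most 0.14. Pomp, a further core chaperone named outside the family, averaged 7.77 ± 0.16 (SD, n = 4).

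Replicates were close for most of the family. The median SD over the 41 detected genes was 0.119 on the log2 scale, a 1.09-fold spread, against 0.165 or 1.12-fold over the 8424 detected named genes. An SD below 0.165 was found for 33 of the 41 (80.5%), and none exceeded 0.411, percentile 95 of all detected genes. Set against the median SD of all detected genes under the same setting, the number below it was 19 of 41 with array median scaling and 23 of 41 with normexp. SD was lower at higher levels on these arrays, and the part of level in the spread of the proteasome genes was not tested. Of the 5874 detected genes within the range of proteasome gene levels, 58.9% also had an SD below 0.165. Their median SD was 0.147, against 0.119 for the 41. In the narrower range of levels from 3.41 to 6.36, the median SD was 0.132 for the 21 proteasome genes and 0.136 for the 1991 genes there. All 41 genes kept their highest and lowest array within 2-fold, and 39 within 1.5-fold; the exceptions were Psmd4 and Psme4. In 5 of the 41, namely Psma3, Psma6, Psmb3, Psmd4 and Psmd11, 1 array stood apart from the other 3 by Dixon's criterion, as it did in 5.35% of all detected named genes. The 8 genes of the cytosolic chaperonin CCT, another large complex with equal numbers of each subunit, had a median SD of 0.148.

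**Figure D2:**
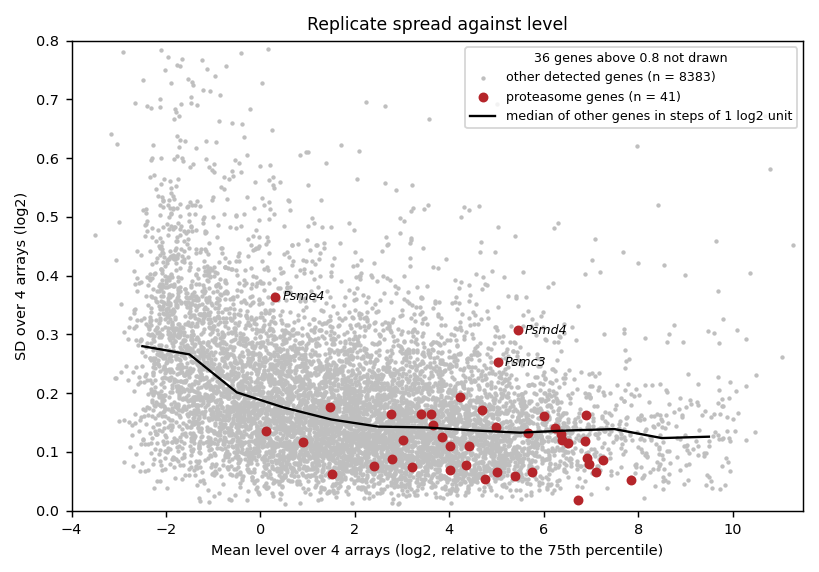
SD over the 4 arrays (log2) against mean level (log2, relative to the 75th percentile) for the 41 detected proteasome genes (large red points) and the 8383 other detected genes (small grey points); the line is the median SD of the other genes in steps of 1 log2 unit. Most proteasome genes lie on or below the line, and Psme4, Psmd4 and Psmc3 lie highest, at 0.36, 0.31 and 0.25.

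Deviations from each gene's own mean were small on every array. The median deviation of the 41 genes was 0.03, -0.04, 0.05 and -0.07 on replicates 1 to 4, against 0.03, -0.02, 0.03 and -0.03 for all detected genes. The highest value fell on replicate 1 for 13 genes, on replicate 2 for 6, on replicate 3 for 18 and on replicate 4 for 4, against 31.0%, 17.6%, 31.5% and 20.0% of all detected genes. The lowest value fell on replicate 1 for 3 genes, on replicate 2 for 11, on replicate 3 for 6 and on replicate 4 for 21, against 20.9%, 26.7%, 22.5% and 29.8% of all detected genes. As shares of the 41, 43.9% were highest on replicate 3 and 51.2% lowest on replicate 4. These counts moved with the scaling: the number lowest on replicate 4 was 8 after quantile normalization, 12 with the 75th percentile over detected probes, 27 with the array median and 1 with normexp background correction. Of all detected genes 22.9%, 20.8%, 48.4% and 22.6% were lowest there under these settings, in the same order.

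Within the core, the rings deviated differently on replicate 3. There the 7 genes of the beta ring had a median deviation of 0.17, and 6 of 7 were highest, the exception being Psmb7. The alpha ring had a median deviation of -0.03 on the same array, and 2 of its 7 genes were highest there. Of all detected genes 31.5% were highest on replicate 3. Beta minus alpha, a difference that scaling by a constant per array does not change, was 0.01, -0.07, 0.19 and -0.02 on replicates 1 to 4. The value on replicate 3 was smaller without replicate 2 (0.12), with spots in bright blocks left out (0.12) and with normexp (0.11), and with bright blocks left out the alpha ring itself had a median deviation of 0.08 there. With normexp 3 of the 7 beta genes were highest on replicate 3 with a median deviation of 0.03, and with quantile normalization 4 of 7 with 0.08. The shares of all detected genes highest there were 21.7% with normexp and 25.2% with quantile normalization. In the base, 7 of 9 genes were lowest on replicate 4, as were 29.8% of all detected genes, and the base had a median deviation of -0.11. This was lost with normexp, where 1 of 9 was lowest and the median was 0.03, and with quantile normalization, where 3 of 9 were lowest and the median was -0.01. With the percentile over detected probes 5 of 9 were lowest, with a median of -0.06. Of all detected genes 22.6% were lowest there with normexp, 22.9% with quantile normalization and 20.8% with that percentile. These subcomplexes were singled out after their values were seen, and no test was made of them.

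**Figure D3:**
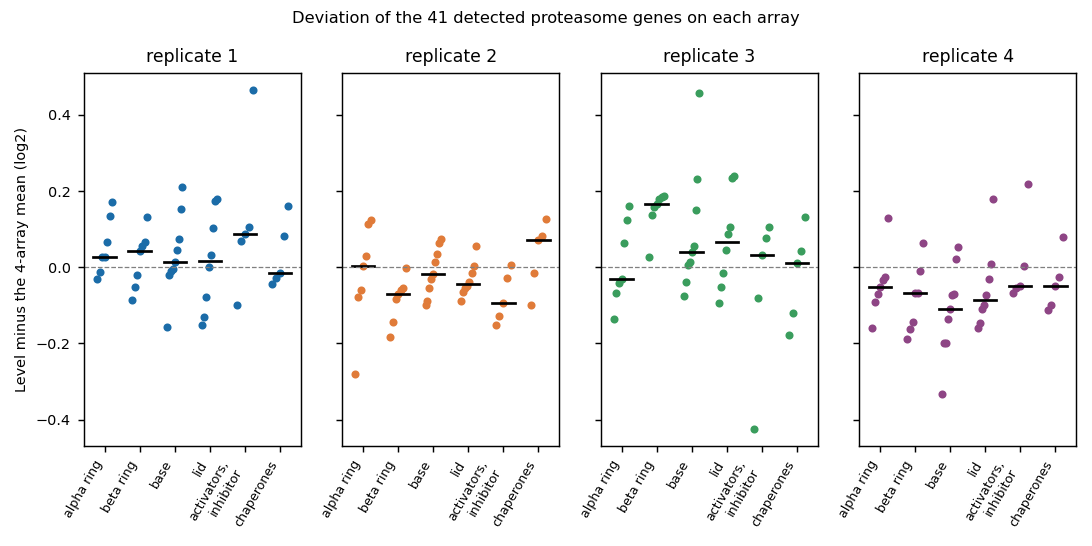
Level minus the gene's own mean over 4 arrays (log2) for the 41 detected proteasome genes, 1 panel per replicate and 1 column per part of the proteasome; each point is a gene and each bar the median of its part. The beta ring lies above 0 on replicate 3, with a median of 0.17, which is 0.03 with normexp and 0.08 with quantile normalization. The base has a median of -0.11 on replicate 4, which is 0.03 with normexp and -0.01 with quantile normalization.

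Probes printed several times show the error of an array's value. Of the probes used, 4 were printed 10 times, 5 were printed 2 times and 33 once, and 16 of 344 member spots over the 4 arrays were left out by the scanner software's outlier flags. The standard error of an array mean, pooled over the 4 arrays from the spread of its spots, was 0.030 for Psma7, 0.033 for Psme2, 0.027 for Psme1 and 0.038 for Psmb4. The SD between array means was 0.066 for Psma7, 0.086 for Psme2, 0.115 for Psme1 and 0.162 for Psmb4. For each of these 4 genes the arrays differed by more than the error of their means. Among the probes printed 2 times the error was 0.23 for Psma1 and 0.11 for Psma5, above their SDs between arrays of 0.19 and 0.06. The spots of Psme1 on replicate 3 ran from 6.48 to 6.73 and those on replicate 2 from 6.28 to 6.50, so the arrays overlapped only at their edge. The spots of Psmb4 on replicate 3 ran from 6.91 to 7.18 and those on replicate 4 from 6.52 to 6.83, with no overlap. Spots of 1 array share 1 labelled RNA, so these values describe printing and scanning and are not replicates of the cells.

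**Figure D4:**
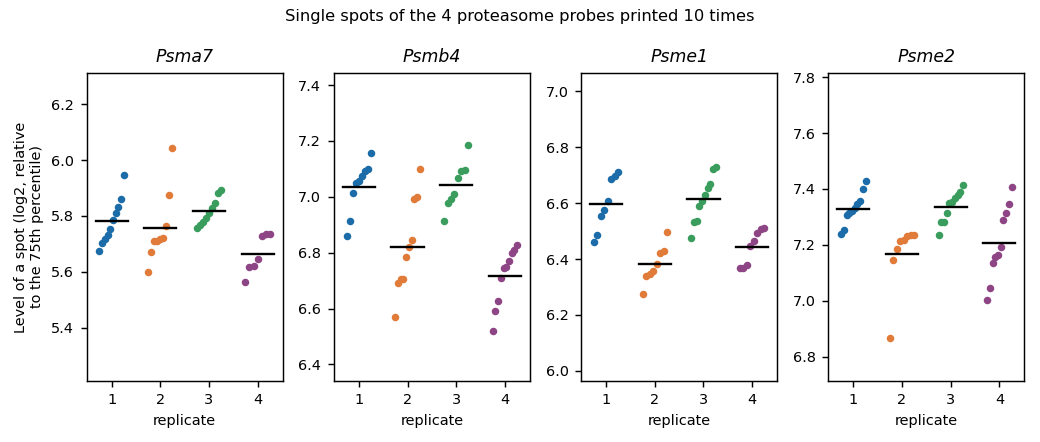
Level of every used spot (log2, relative to the 75th percentile) of the 4 proteasome probes printed 10 times, by replicate; points within a replicate are sorted by value and the bar is their mean. For Psmb4 the spots of replicate 4 lie below those of replicate 3. For Psma7 they do so by a narrow margin, at most 5.73 on replicate 4 and at least 5.76 on replicate 3.

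For 39 genes the value rests on 1 probe, and 3 genes had 2. The 2 probes of Psmb6 had mean levels of 6.25 and 5.90 and differed by 0.35 ± 0.12 (SD, n = 4). Those of Psmc1 had 6.96 and 4.46 and differed by 2.50 ± 0.08. Both probes of each of these genes were detected on all 4 arrays. The difference held its size from array to array for Psmc1. For Psmb6 it was larger on replicate 4, at 6.31 and 5.79, than on replicate 1, at 6.16 and 5.92. The probes of Psmg4 disagreed on detection. One, designed on a curated transcript, averaged 3.85 and was detected on all 4 arrays; the other, designed on a predicted transcript, averaged -5.04 and was detected on none.

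The RefSeq table lists 46 pseudogenes for 19 of the genes, most for Psmb3 with 7, Psma6 with 5 and Psme3 with 4. It lists near copies named after Psmb3, Psmb6, Psme1 and Psmg4, none of them measured by name. Probe sequences were not used here, so signal of such copies and signal of the gene itself cannot be told apart. The 42 genes lie on 17 chromosomes.

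Genes that feed or regulate the proteasome were described from lists of their own. Of 6 ubiquitin and E1 genes 5 were detected on all 4 arrays: the polyubiquitin gene Ubb averaged 9.73 ± 0.04 (SD, n = 4), and the E1 enzyme Uba6 was detected on none. Of 13 genes for shuttle factors, which carry ubiquitinated proteins to the cap, and for the p97 unfoldase 12 were detected, with Rad23b at 4.66 ± 0.46, and Ddi2 was detected on none. Of 9 measured proteasome-associated genes outside the naming rule 8 were detected on all 4 arrays, and the ubiquitin receptor Adrm1 was detected on 3. On the remaining array its only probe had no value after spots with outlier flags were left out. That array therefore does not show whether Adrm1 was below detection. Of 6 measured regulators 5 were detected, among them the oxidative stress factor Nfe2l2 at 5.22 ± 0.12 and Ngly1, the glycanase that Nfe2l1 needs for activation, at 3.18 ± 0.09. The NF-Y subunit Nfyb was detected on none, while Nfya and Nfyc were detected on all 4 arrays. Nfe2l1 itself had no named probe.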

How the data were processed

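Total RNA was measured on 4 one-colour Agilent arrays of 58717 non-control spots each. The deposited files hold the intensity of each spot on a linear scale. The submitters' processing notes name Agilent Feature Extraction 11.0.1.1. Per the file headers the processed intensity is background-subtracted, and the array grid was built on rn4. The files name probes by transcript accession. These were matched without version to the RefSeq gene table of GRCr8, which named 21109 of 45598 probes for 16581 genes. Coordinates printed with promoters are those of the RefSeq promoter table (GRCr8). Protein and probe sequences were not used here.

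Spots flagged as non-uniform or population outliers were left out (750, 1092, 884 and 1551 on replicates 1 to 4), and none was saturated. The log2 processed signal was averaged for each probe over its spots and expressed relative to the 75th percentile of its array (an intensity of 99.4, 83.8, 101 and 127). A gene took the probe with the highest mean among those measured on all 4 arrays, and was detected where any spot of any probe was well above background. The number of arrays, 4, limits the precision. All genes of the rule are named; per-array values are given for the catalytic subunits, the first gene of each subcomplex list, the 3 largest and 3 smallest SDs, genes not detected and genes whose probes disagree, and further genes (among them Psma4) were singled out after their values were seen. Values of some context genes are not reported here. Members and lists were chosen with earlier results of these data known. Alternatives were quantile normalization, array median scaling, the percentile over detected probes, normexp (limma 3.58.1, R 4.3.3), other probe, flag and detection rules, and leaving out each replicate. Normexp started from the median spot and background signals instead of the processed signal, and added an offset of 50. Its values therefore differ from the main ones in more than the background correction. The rest used Python 3.11.15, numpy 2.4.6 and pandas 2.3.3, and the steps were tested on simulated data.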

Additional observations from a re-analysis of the deposited data

Results flagged for a closer look

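In 5 of the 41 detected proteasome genes 1 array stood apart by Dixon's criterion for 4 samples, which sets the gap to the nearest other array against the whole range. Chance alone marks about 1 in 20 such groups, and 451 of the 8424 detected named genes (5.35%) met the criterion on these arrays. Psma3, an alpha subunit, was high on replicate 2 at 2.51, with the other arrays between 2.34 and 2.37. Psma6, another alpha subunit, was high on replicate 1 at 7.06, with the others between 6.87 and 6.89. Psmb3, a structural beta subunit, was high on replicate 3 at 6.58, with the others between 6.33 and 6.34. Psmd11, a lid subunit, was high on replicate 4 at 3.20, with the others between 2.95 and 2.98. These 4 genes still ranged over at most 1.20-fold. Psmd4, the ubiquitin receptor, was high on replicate 3 at 5.91, with the others between 5.25 and 5.36, and its only spot lay in a bright block of that array; the part of the block in this value was not tested.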

How the results depend on the processing

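The number of proteasome genes detected on all 4 arrays, 41, was 42 with the less strict flag, 40 where every probe of a gene had to be detected (without Psma8 and Psmg4), and 41 on at least 3 of 4 arrays, with outlier spots kept and without each replicate in turn. An alternative chosen after seeing the data left out all spots in blocks that were bright on any array (0.397% to 2.64% of spots per array) and gave 38, since the used spots of Psmd4, Psmd5 and Psmg4 lay in them. The same alternative was within the replicate spread for the median SD and the shifts. Scaling by the array median moved the median shift of all detected genes to -0.28, 0.46 and -0.28 on replicates 2 to 4. It moved that of the proteasome genes to -0.30, 0.48 and -0.33. The median SD of the proteasome genes became 0.395, against 0.390 for all detected genes. With normexp the median shift on replicate 4 was 0.0734, against -0.07 in the values reported. The median shift of all detected genes there was 0.05 with normexp, against -0.03, and the cause was not tested. The other 60 recomputed values moved by less than the spread between replicates or, for counts, by less than 1.5 times, but the shifts are small and were not stable in sign: quantile normalization gave -0.02 on replicate 1 and -0.003 on replicate 4, normexp -0.01 on replicate 3, and keeping outlier spots -0.14 on replicate 4. The median SD without 1 replicate ran from 0.087 to 0.126. Mean levels, which depend on the zero point, moved by more than the replicate SD for all 19 genes with per-array values by rule under the array median and under the percentile over detected probes, and for 18 with normexp. Averaging all probes moved 3 of 19: Psmb6 to 6.07, Psmc1 to 5.71 and Psmg4 to -0.60. Leaving out bright blocks moved 2 of 19: Psmg4 to -5.07, since only its undetected probe was left, and Psmc2 to 6.69. Keeping outlier spots moved 1 of 19, Psmc2 to 6.68. Psmc2, at 6.72 in the values reported, has no spot in a bright block. Its SD of 0.018 is so small that a slight change counts as a move. Psmd4 and Psmd5, also among the 19, had no spot left and so no level to compare. Dropping the detection filter was run for the SD and the shifts and does not alter single levels. No paired analysis was possible because the arrays form 1 group.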

Other observations

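Both subunits of the PA28 alpha-beta activator and the 3 inducible beta subunits, all textbook interferon-inducible genes, were detected on every array without any unexposed cells to set them against. The range over the 4 arrays differed among them. Psmb9 stayed between 4.09 and 4.17, and Psmb8 ran from 5.35 to 5.70 and was highest on replicate 2. Psmb10 ran from 5.81 to 6.15 and was higher on replicates 1 and 3 than on 2 and 4, as Psme1 and Psme2 were. That pattern is not particular to inducible genes, since most constitutive genes of the beta ring and genes of other parts had it too. The median deviation of all detected genes was 0.03, -0.02, 0.03 and -0.03 on replicates 1 to 4.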
